A study of Mus musculus with 60 samples.

Results

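Interferon gamma (IFNg) was blocked with an antibody in brown adipose tissue (BAT) of mice whose regulatory T (Treg) cells were the target of diphtheria toxin. The samples were chosen by their labels as the whole-tissue BAT libraries of DTR+ mice given toxin with either the antibody against IFNg or an isotype control antibody. They are 6 of the 60 libraries of the series, 3 with the antibody (replicates 1, 2 and 4) and 3 with isotype (replicates 3, 4 and 8). All 6 came from 8-week-old males of strain B6.Foxp3.DTR, in which cells that express Foxp3 carry the diphtheria toxin receptor, and all were given toxin. Both groups therefore have the same genotype and the same toxin, and differ in the antibody. No DTR- mice given isotype or antibody were analysed here, so the effect of toxin itself was not measured in this experiment. It was read instead from 2 other sets of the same strain, age, sex and tissue: toxin-treated DTR+ and DTR- mice labelled D4 (4 libraries each) and D3 (3 each). The titles of the D3 libraries, DTR+ and DTR- alike, also name PBS, which those of D4 do not. Those sets share no library with the antibody comparison. The labels give no dose, timing or clone for the antibody. They also leave it unsaid whether each replicate is its own mouse, so a p-value here measures only how these libraries vary, which could be technical variation.

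IFNg is a cytokine of activated T and NK cells. It binds the receptor chains Ifngr1 and Ifngr2, and the kinases Jak1 and Jak2 then start a signal to the nucleus, which acts through palindromic promoter elements called GAS and switches on genes that include Irf1. IRF proteins bind a related element, the ISRE, which also serves type I interferon signalling. Target genes encode GTPases that attack pathogen vacuoles, the machinery that loads peptides on MHC class I, chemokines for T cells and antiviral proteins. Treg cells restrain the T cells that make IFNg, and brown fat is the organ in which the uncoupling protein Ucp1 turns fuel into heat.

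Promoter sequence is shown, because it carries these elements, for 3 of the fallen interferon genes with the lowest p that hold one in the window from 250 bases before to 50 bases after the RefSeq start (GRCm38.p6, 5′ to 3′). Capitals mark GAS (TTCNNNGAA) and the ISRE core (GAAA, 2 bases of any kind, then GAAA, which reads as TTTC, 2 bases and TTTC where it lies on the other strand). Irgm2 (chr11:58214727-58215026, + strand) and Igtp (chr11:58199306-58199605, + strand) encode immunity-related GTPases, and Gbp7 (chr3:142530086-142530385, + strand) a guanylate-binding protein.

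Irgm2: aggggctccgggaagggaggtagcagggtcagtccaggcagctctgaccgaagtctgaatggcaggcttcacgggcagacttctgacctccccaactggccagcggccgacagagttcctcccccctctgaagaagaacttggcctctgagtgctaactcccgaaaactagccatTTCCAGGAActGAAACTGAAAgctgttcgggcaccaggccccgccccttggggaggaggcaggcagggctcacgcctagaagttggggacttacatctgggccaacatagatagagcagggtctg

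Igtp: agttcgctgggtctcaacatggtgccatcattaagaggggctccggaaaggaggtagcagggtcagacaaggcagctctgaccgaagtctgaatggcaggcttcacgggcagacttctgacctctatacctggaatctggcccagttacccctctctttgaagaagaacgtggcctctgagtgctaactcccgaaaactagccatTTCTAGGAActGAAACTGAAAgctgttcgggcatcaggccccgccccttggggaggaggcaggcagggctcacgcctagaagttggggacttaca

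Gbp7: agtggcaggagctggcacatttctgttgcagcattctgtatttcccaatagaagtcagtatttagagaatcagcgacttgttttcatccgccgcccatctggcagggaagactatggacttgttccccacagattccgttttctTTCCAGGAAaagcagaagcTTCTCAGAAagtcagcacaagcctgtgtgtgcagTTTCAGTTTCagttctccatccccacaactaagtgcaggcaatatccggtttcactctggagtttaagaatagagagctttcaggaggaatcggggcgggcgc

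In Irgm2 the GAS letters begin 75 bases before the start and the ISRE core 64 bases before it. In Igtp they begin 45 and 34 bases before it, so that 2 bases separate the elements in both genes. The windows of these genes share long runs of the same letters, so the equal spacing is not 2 separate observations. In Gbp7 GAS matches begin 106 and 87 bases before the start and the ISRE core 53 bases before it. Of the 45 members of the 9 interferon lists that fell, 34 had a window, and 11 of these (32.4%) held GAS, 19 (55.9%) the ISRE core and 9 (26.5%) both. Among members that did not pass the test, 15.3% of 72 windows held GAS and 27.8% the ISRE core. Over all genes tested the shares were 8.17% and 3.77% of 9322 windows, with both in 0.558%, and over the whole promoter table of 27025 genes 9.55% and 3.99%. Both motifs were searched on both strands, and a GAAA run can take part in both. A match is a run of letters and was not tested for binding.

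The libraries held 6216495, 4989756 and 6037718 counts with the antibody and 4858240, 4054004 and 3528362 with isotype, so the antibody libraries were all deeper. With all 6 thinned to the smallest total, an alternative chosen after seeing the data, 61 genes passed in place of 65. Levels below are CPM, a library's counts for a gene scaled to a common library total by TMM within the 6 libraries, unless another scale is named. Defining genes of brown fat were abundant, with Ucp1 between 5644 and 8179 CPM and the lipid droplet gene Cidea between 3879 and 4982 CPM over the 6 libraries. Foxp3 had 0, 1 and 1 counts with the antibody and 2, 0 and 0 with isotype, all under the floor of 3 counts, so the loss of Treg cells could not be measured here.

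With the antibody 61 genes fell (0.508% of 12017 tested) and 4 rose (0.0333%), relative to isotype (edgeR, 65 in all, 0.541%). Of the 12017, 982 had an unadjusted p under 0.05, the count to set beside those of the lists below. Most of those that fell are interferon genes. On 9 lists of interferon genes, 174 genes in all, 148 were high enough to test, 45 fell and 0 rose, and 136 had a log2 fold change below 0. Their median was -0.78, while the median of all genes tested was 0.01. For all 65 genes the ranges of the groups did not overlap, which was so of 6.71% of all tested genes in the lower direction and 6.52% in the higher one. DESeq2 called all 65 as well. With each library left out in turn, 33 of the 65, all of them lower, passed in all 6 fits, and the count fell to 40 without isotype replicate 3 and to 41 without antibody replicate 4. A further edgeR fit took in the other DTR groups of whole BAT and the cold group, titled WT and 4 degrees. There 0 genes passed (566 at an unadjusted p under 0.05). Without the library labelled DTR- PBS replicate 3, a choice made after seeing the data, 36 passed (35 lower, 1 higher).

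The plot of levels by library sets the genes of this response beside the 4 that rose.

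**Figure D1:**
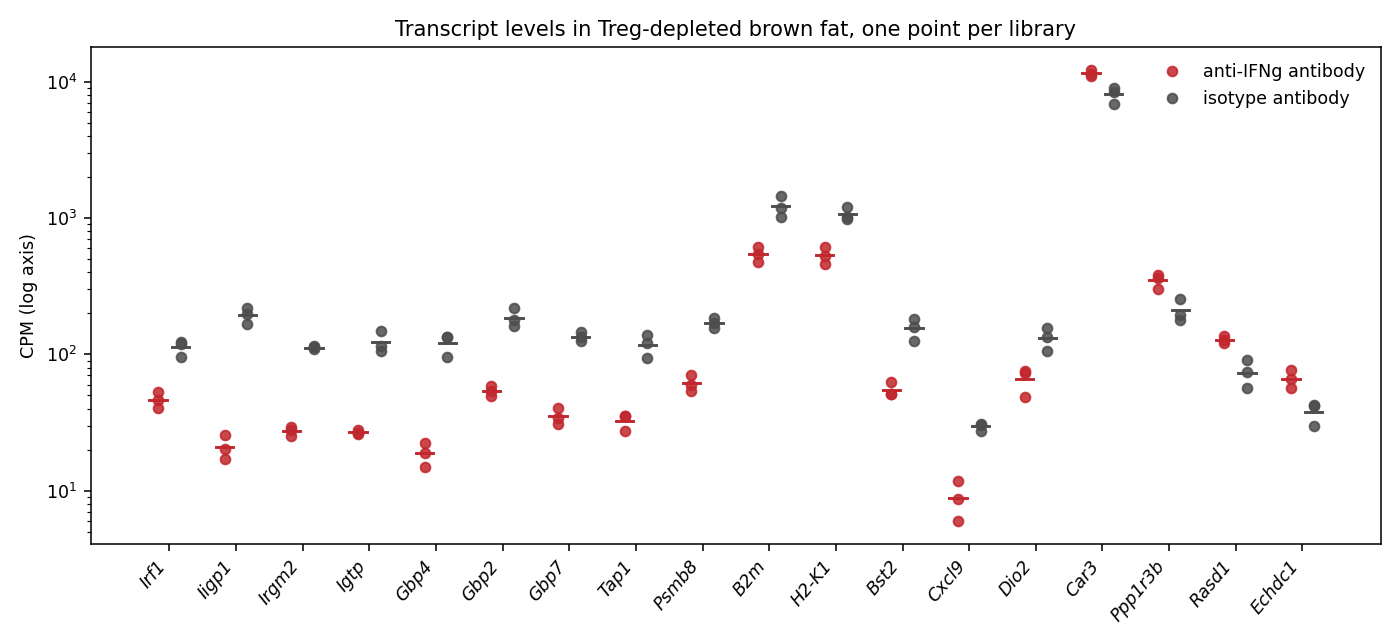
CPM (log axis) of 18 genes in the 3 antibody libraries (left, red) and the 3 isotype libraries (right, grey), with one point per library and a bar at the group mean. Iigp1 lies at 17.1 to 25.5 CPM with the antibody and 168 to 218 CPM with isotype. Car3, Ppp1r3b, Rasd1 and Echdc1 are the genes that are higher with the antibody.

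No receptor or kinase of the pathway named here passed the test. Ifng itself had 0, 2 and 2 counts with the antibody and 0, 0 and 0 with isotype, under the floor, so its level could not be compared at this depth. Ifngr1 stood at 148, 189 and 210 CPM with the antibody and 177, 164 and 168 CPM with isotype (log2 fold change 0.10 ± 0.13 SE, adjusted p = 0.89), and the groups overlapped. Ifngr2 stood at 42.1, 38.5 and 43.8 CPM with the antibody and 47.1, 47.6 and 34.1 CPM with isotype (-0.05 ± 0.17, adjusted p = 0.97). Jak1 (0.04 ± 0.14) and Jak2 (-0.15 ± 0.25) also did not pass. These genes encode the receptor chains and their kinases, which act before any transcription.

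Among the transcription factors, Irf1 and Irf9 fell. Irf1 (chromosome 11, 53770014 to 53778374), an interferon-induced factor, stood at 46.2, 52.6 and 40.3 CPM with the antibody and 95.9, 124 and 119 CPM with isotype, and fell by 1.28 ± 0.15 (adjusted p = 0.00012). Every antibody library was below every isotype library for Irf1. Irf9, a factor of type I interferon signalling, fell by 0.81 ± 0.17, and passed in 1 of 6 fits with a library left out. Of 15 tested on the signalling list 3 passed, all lower (median -0.23), while DESeq2 called 5, all lower, and 7 had an unadjusted p under 0.05. Irf8, a factor of myeloid cells, gave -0.91 ± 0.34 and did not pass, with overlapping groups. The feedback inhibitor Socs1 was too low to test, at 1.30, 1.59 and 1.05 CPM with the antibody and 3.96, 1.47 and 3.73 CPM with isotype.

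Immunity-related GTPases, which mouse cells place on the vacuoles of intracellular parasites, fell in 10 of 11 tested cases (median -2.33). Iigp1 (chromosome 18, 60376027 to 60392634) stood at 17.1, 25.5 and 20.2 CPM with the antibody and 218, 197 and 168 CPM with isotype. Its fall by 3.22 ± 0.16 had the smallest p of all genes tested (adjusted p = 2.6e-09). No antibody library came near the lowest isotype library. Irgm2 stood at 29.1, 25.3 and 27.7 CPM with the antibody and 113, 114 and 109 CPM with isotype, and fell by 2.03 ± 0.14 (adjusted p = 1.8e-07). Igtp stood at 28.0, 26.5 and 26.1 CPM with the antibody and 150, 116 and 106 CPM with isotype, and fell by 2.20 ± 0.16 (adjusted p = 2.0e-07). Both carry the adjacent GAS and ISRE core printed above, and their annotated genes overlap on the same strand, so reads could be split between them. Irgm1 fell by 1.51 ± 0.17, Ifi47 by 2.37 ± 0.27, and the near copies Tgtp1 and Tgtp2 by 2.38 ± 0.37 and 2.80 ± 0.30. Gm4951 (-2.33 ± 0.42) and Gm12250 (-2.29 ± 0.45) fell as well. For Gm4841 the fold change rests on 0, 1 and 0 counts with the antibody and 16, 26 and 10 with isotype. The member that did not pass was Irgq, at 0.06 ± 0.21.

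Guanylate-binding proteins, large GTPases that coat pathogens and their vacuoles, fell in 7 of 9 tested cases (median -1.81), and all 9 were below 0. Gbp4 (chromosome 5, 105115767 to 105139586) stood at 14.8, 18.9 and 22.4 CPM with the antibody and 133, 95.7 and 133 CPM with isotype, and fell by 2.69 ± 0.19 (adjusted p = 1.8e-07). Gbp7 stood at 40.7, 30.7 and 34.0 CPM with the antibody and 145, 124 and 135 CPM with isotype, and fell by 1.94 ± 0.15 (adjusted p = 3.7e-07). Gbp2 stood at 49.3, 58.8 and 54.0 CPM with the antibody and 219, 178 and 162 CPM with isotype, and fell by 1.79 ± 0.14 (adjusted p = 5.0e-07). In each of the 3 genes the isotype libraries were all above the antibody libraries. Gbp6 fell by 1.88 ± 0.23, Gbp3 by 1.37 ± 0.19, Gbp5 by 1.81 ± 0.39 and Gbp9 by 1.16 ± 0.22. Gbp4 overlaps Gbp8 and Gbp9 on the same strand, so their reads could be shared. Gbp10 (-2.47 ± 0.60, adjusted p = 0.12) and Gbp11 (-1.37 ± 0.55, adjusted p = 0.51) did not pass.

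MHC class I genes fell at steps from the proteasome to the cell surface, 13 of 23 tested (median -0.85), and all 23 were below 0. Nlrc5, the transactivator of class I genes, stood at 16.3, 14.6 and 8.24 CPM with the antibody and 36.0, 35.6 and 37.3 CPM with isotype, and fell by 1.48 ± 0.24 (adjusted p = 0.0029). The immunoproteasome subunits Psmb8, Psmb9 and Psmb10, which cut peptides for presentation, fell by 1.47 ± 0.14, 1.83 ± 0.17 and 0.85 ± 0.15, and the proteasome activator Psme1 by 0.57 ± 0.12. Tap1 (chromosome 17, 34187553 to 34197225), one chain of the transporter that carries peptides to class I molecules, stood at 27.5, 35.3 and 35.3 CPM with the antibody and 138, 121 and 94.4 CPM with isotype. It fell by 1.86 ± 0.17 (adjusted p = 3.9e-06), and the groups stood far apart. Its partner Tap2 gave -0.50 ± 0.13 and did not pass (adjusted p = 0.15). Tap1 and Psmb9 overlap on opposite strands, and without a stated strand setting their reads cannot be told apart there.

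Genes of the class I molecules themselves fell as well. B2m, the light chain shared by all of them, stood at 476, 617 and 546 CPM with the antibody and 1449, 1190 and 1027 CPM with isotype, and fell by 1.16 ± 0.13 (adjusted p = 0.00012). The heavy chain H2-K1 stood at 458, 615 and 528 CPM with the antibody and 1199.9, 986 and 1018 CPM with isotype, and fell by 1.00 ± 0.12 (adjusted p = 0.00012). H2-D1 fell by 0.77 ± 0.10. The nonclassical genes H2-Q6, H2-Q7, H2-T22 and H2-T23 fell by 2.23 ± 0.27, 2.16 ± 0.33, 1.00 ± 0.17 and 1.14 ± 0.22, although reads of such near copies are uncertain. MHC class II genes, which present peptides to CD4+ T cells, gave 0 of 8 calls with edgeR and 0 with DESeq2, 3 at an unadjusted p under 0.05, and all 8 were below 0 (median -0.76). H2-Ab1 stood at 193, 202 and 101 CPM with the antibody and 462, 190 and 143 CPM with isotype (-0.69 ± 0.59, adjusted p = 0.86). Isotype replicate 3 is far above the rest there, and without it the value was -0.02. The class II transactivator Ciita gave -0.87 ± 0.41 (adjusted p = 0.61).

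Antiviral genes that type I interferon also induces fell in 6 of 27 tested cases (median -0.92), 26 were below 0, and in 20 all antibody libraries lay below all isotype libraries. Bst2, which tethers budding virus to the cell, stood at 51.1, 62.4 and 50.9 CPM with the antibody and 182, 160 and 125 CPM with isotype, and fell by 1.51 ± 0.15 (adjusted p = 1.5e-05). Rsad2, an antiviral enzyme known as viperin, stood at 45.2, 70.6 and 42.3 CPM with the antibody and 130, 105 and 115 CPM with isotype, and fell by 1.15 ± 0.18 (adjusted p = 0.0039). Ifitm3, a membrane protein that hinders viral entry, fell by 0.81 ± 0.12. Rtp4 fell by 1.52 ± 0.25, the ubiquitin-like modifier Isg15 by 1.32 ± 0.27 and the factor Irf7 by 1.47 ± 0.26. The count of 6 fell to 3 without antibody replicate 1 or without antibody replicate 4, and DESeq2 gave 10. Ifit3 (-1.24 ± 0.30, adjusted p = 0.17) and Oasl2 (-1.43 ± 0.33, adjusted p = 0.11), picked after their values were seen, did not pass with edgeR and did with DESeq2.

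Nucleic acid sensors gave 2 calls of 14 tested (median -0.58). Zbp1, which senses Z-form nucleic acid, stood at 2.93, 4.98 and 3.16 CPM with the antibody and 27.5, 15.7 and 13.8 CPM with isotype, and fell by 2.38 ± 0.35 (adjusted p = 0.0013). Ifi209 fell by 2.87 ± 0.56. Only 1 sensor was left without antibody replicate 2 or without isotype replicate 3, 4 or 8. Among 16 chemokines tested (median -0.62), Cxcl9, which draws T cells through CXCR3, was the called one. Cxcl9 stood at 8.62, 11.8 and 5.96 CPM with the antibody and 31.1, 30.4 and 27.3 CPM with isotype, and fell by 1.76 ± 0.26 (adjusted p = 0.0013). Its relative Cxcl10, picked after its values were seen, gave -1.36 ± 0.39 and did not pass (adjusted p = 0.22). Of 25 other IFNg effectors 3 fell (median -0.49): Ly6a by 0.78 ± 0.11, the galectin-binding protein gene Lgals3bp by 0.81 ± 0.13 and the galectin gene Lgals9 by 0.67 ± 0.14.

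The plot of lists shows each tested member.

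**Figure D2:**
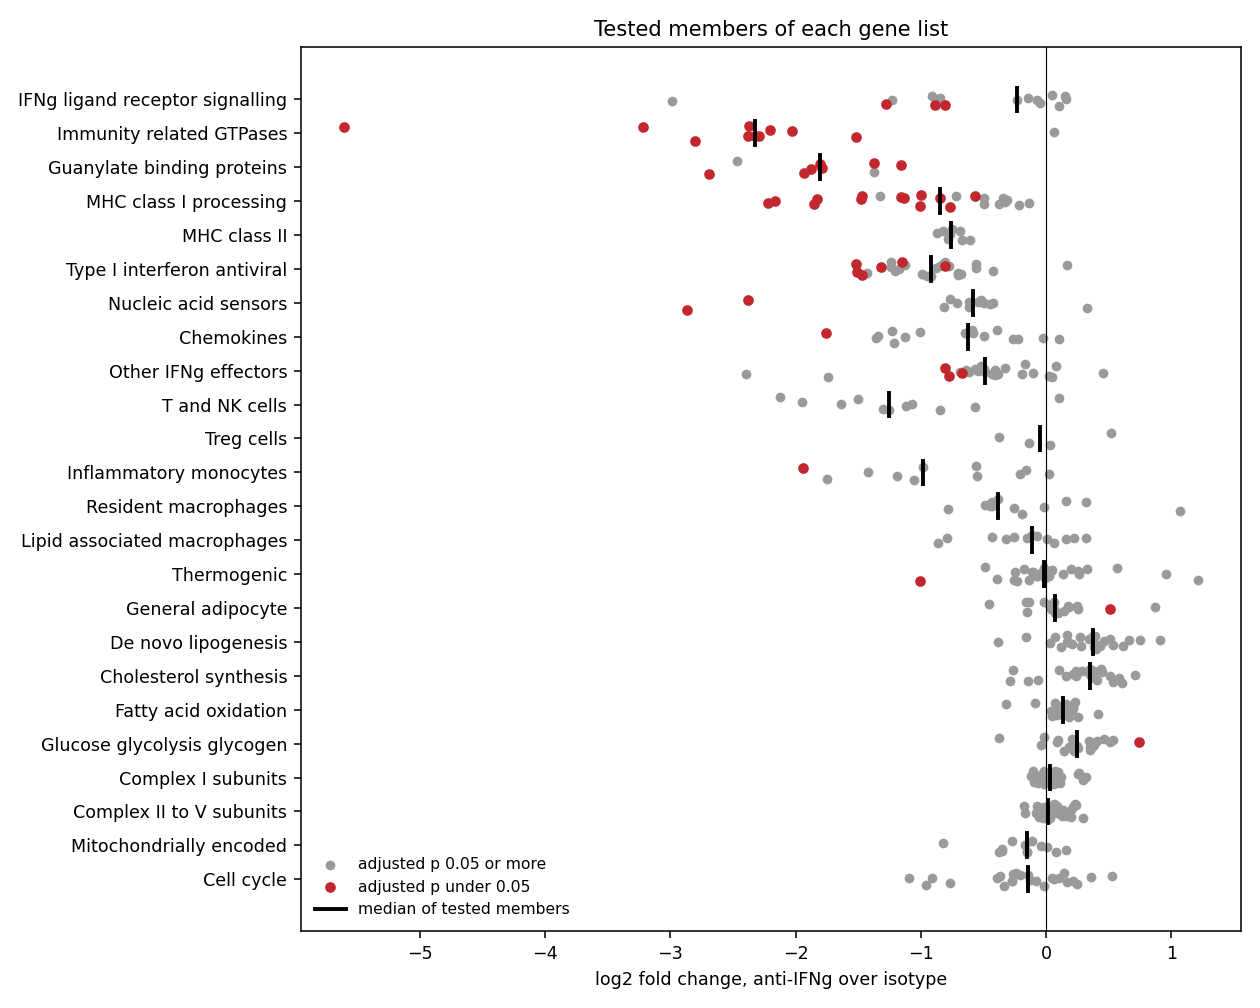
Log2 fold change of antibody over isotype (x axis) for the tested members of 24 gene lists, with red points for genes past the threshold and a bar at each list's median. The lists of immunity-related GTPases and guanylate-binding proteins lie farthest to the left, with medians of -2.33 and -1.81. The leftmost point is Gm4841, whose fitted value rests on counts of 0 and 1 in the antibody libraries.

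The summed markers of T and NK cells, the main makers of IFNg, were lower in all antibody libraries. Their summed level over 24 genes was 48.5, 52.2 and 37.2 CPM with the antibody and 112, 102 and 75.8 CPM with isotype. The groups did not overlap (exact two-sided permutation p = 0.1, the smallest that 3 against 3 allows). Of single genes tested, 6.71% lay without overlap in the lower direction and 6.52% in the higher one. None of the 24 markers was at 0 in all 6 libraries, 0 of the 11 tested passed with edgeR and 1 with DESeq2, 7 had an unadjusted p under 0.05, and 10 were below 0 (median -1.26). The granule gene Nkg7 stood at 3.74, 6.18 and 2.81 CPM with the antibody and 12.07, 12.02 and 6.03 CPM with isotype (-1.26 ± 0.41, adjusted p = 0.32), and the groups overlapped. Il2rb, an IL-2 receptor chain, gave -0.85 ± 0.42 (adjusted p = 0.64). Markers of inflammatory monocytes summed to 85.7, 88.5 and 83.8 CPM with the antibody and 179, 136 and 127 CPM with isotype, again without overlap (exact permutation p = 0.1). Of their 11 tested genes Ly6c2 fell, by 1.94 ± 0.42 (adjusted p = 0.0405), and it did not pass in any of the 6 fits with a library left out. In whole tissue fewer cells of a type and less RNA per cell cannot be told apart, and the part of these cells in the fall of the interferon genes was not tested.

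Summed markers of other cell types overlapped between the groups. Resident macrophage markers summed to 449, 513 and 350 CPM with the antibody and 860, 472 and 345 CPM with isotype (exact permutation p = 0.7), and 0 of 13 tested passed with edgeR or DESeq2 or had an unadjusted p under 0.05. C1qb stood at 110, 120 and 68.6 CPM with the antibody and 239, 94.2 and 69.4 CPM with isotype (-0.44 ± 0.58, and 0.28 without isotype replicate 3), and the lysosomal marker Cd68 gave -0.25 ± 0.21. Muscle genes ranged over 6319, 1199.7 and 2281 CPM with the antibody and 3223, 78.0 and 3043 CPM with isotype (exact permutation p = 0.6), and red cell genes over 637, 644 and 831 CPM with the antibody and 744, 730 and 2025 CPM with isotype (exact permutation p = 0.4). Lists of Treg cells, lipid-associated macrophages, neutrophils, B cells, dendritic cells, endothelial cells, fibroblasts and Schwann cells gave 0 calls of 69 tested with edgeR and with DESeq2, and 2 at an unadjusted p under 0.05 (exact permutation p of their sums from 0.5 to 1). Muscle RNA had the widest of these spreads, with high and low libraries in both groups. A sum weighs a list's most expressed genes most. These were Lpl and Ctsd for lipid-associated macrophages, and Rora and Ikzf2 for Treg cells. Whether their RNA came from those cells was not tested, so such sums cannot show that the cells were unchanged.

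**Figure D3:**
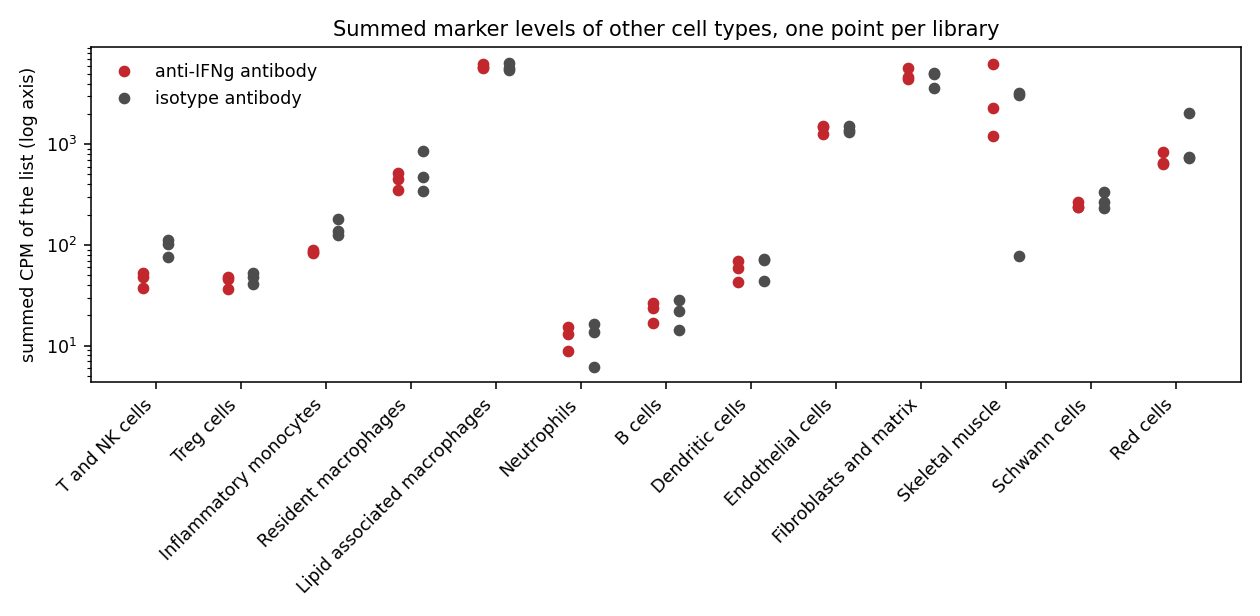
Summed CPM of 13 marker lists (log axis) in the 3 antibody libraries (left, red) and the 3 isotype libraries (right, grey). T and NK cells and inflammatory monocytes are the lists whose groups do not overlap. Of single genes tested, 6.71% lay without overlap in the lower direction and 6.52% in the higher one. Muscle genes reach from 78.0 CPM in 1 isotype library to 6319 CPM in 1 antibody library.

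The 4 genes that rose are genes of metabolism and signalling. Car3 (chromosome 3, 14863512 to 14872523), the carbonic anhydrase abundant in adipocytes and slow muscle, stood at 11398, 10968 and 12246 CPM with the antibody and 6902, 8406 and 8978 CPM with isotype. It rose by 0.51 ± 0.10 (adjusted p = 0.015). Ppp1r3b (chromosome 8, 35375739 to 35388139), which directs a phosphatase to glycogen, stood at 365, 302 and 385 CPM with the antibody and 179, 196 and 256 CPM with isotype, and rose by 0.74 ± 0.14 (adjusted p = 0.018). Rasd1, a Ras-like protein induced by dexamethasone, stood at 136, 128 and 121 CPM with the antibody and 56.4, 90.5 and 73.8 CPM with isotype, and rose by 0.80 ± 0.16 (adjusted p = 0.019). Echdc1, an enzyme that removes ethylmalonyl-CoA, stood at 65.7, 56.4 and 77.3 CPM with the antibody and 29.9, 42.4 and 41.6 CPM with isotype, and rose by 0.81 ± 0.18 (adjusted p = 0.047). All 4 were higher in every antibody library. With 1 library left out they passed in 2, 2, 1 and 1 of 6 fits, in the order named. Muscle also expresses Car3, its sums above overlapped between the groups, and their part in the Car3 value was not tested.

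Genes of lipid synthesis, glucose use and fatty acid oxidation lay mostly above 0, and 1 of them passed with edgeR. Of 25 genes of fatty acid synthesis 23 were above 0 (median 0.38), and 0 passed with edgeR, 1 with DESeq2 and 4 at an unadjusted p under 0.05. Scd1, the desaturase, stood at 27508, 29266 and 24308 CPM with the antibody and 22761, 17272 and 18976 CPM with isotype (0.46 ± 0.10, adjusted p = 0.062), and it passed with DESeq2, with no filter on low counts, without isotype replicate 3 and without antibody replicate 4. Fatty acid synthase (Fasn) stood at 8009, 9147 and 8817 CPM with the antibody and 2834, 5249 and 7357 CPM with isotype (0.75 ± 0.39, adjusted p = 0.74). Isotype libraries differed widely there. Of 23 cholesterol synthesis genes 19 were above 0 (median 0.35), 0 passed with either tool and 5 had an unadjusted p under 0.05, with Hmgcs1 at 0.24 ± 0.17 and Insig1, a sensor of sterols, at 0.58 ± 0.18 (adjusted p = 0.36). Of 24 genes of glucose use 21 were above 0 (median 0.24), and in 8 all antibody libraries lay above all isotype libraries. Ppp1r3b was the one called by edgeR, while DESeq2 called 3, all higher, and 11 had an unadjusted p under 0.05. Of 23 genes of fatty acid oxidation 21 were above 0 (median 0.13), 0 passed with edgeR, 1 with DESeq2 and 5 at an unadjusted p under 0.05, with Acaa2 at 0.21 ± 0.09 and Acadl at 0.10 ± 0.09.

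Of the heat-producing program 1 gene passed. Ucp1 (chromosome 8, 83290352 to 83298452) stood at 8179, 5644 and 6653 CPM with the antibody and 7312, 6428 and 6055 CPM with isotype. Its log2 fold change was 0.05 ± 0.12 (adjusted p = 0.96), and the groups overlapped. Over 27 thermogenic genes tested the median was -0.02. The called one was Dio2 (chromosome 12, 90724552 to 90738438), the deiodinase that makes active thyroid hormone in brown fat, at 73.5, 49.0 and 74.9 CPM with the antibody and 135, 157 and 106 CPM with isotype. It fell by 1.01 ± 0.18 (adjusted p = 0.016), with no overlap, but did not pass without isotype replicate 3 or without isotype replicate 4. Subunits of complex I (37 tested, median 0.03) and of complexes II to V (41 tested, median 0.01) gave 0 calls with edgeR or DESeq2. In each list 4 genes had an unadjusted p under 0.05, beside 982 of all 12017 genes tested. Ndufa4 was at -0.07 ± 0.09, Ndufv1 at 0.25 ± 0.09, Atp5b at 0.13 ± 0.09 and Atp5a1 at 0.20 ± 0.09. The 13 mitochondrially encoded genes also gave 0 calls with either tool, 2 at an unadjusted p under 0.05 (median -0.16), with mt-Cytb at 0.07 ± 0.08 and mt-Co1 at -0.27 ± 0.10. Clock genes gave 0 of 16 calls with either tool, 1 at an unadjusted p under 0.05 (median 0.23), with Nr1d1 at 0.26 ± 0.15 and Bhlhe40 at 0.25 ± 0.21. Cell cycle genes (25 tested, median -0.14), immediate early genes (19, median 0.14) and genes of inflammatory feedback (12, median -0.29) gave 0 calls with edgeR, and 0, 1 and 0 with DESeq2, with 2, 3 and 2 genes at an unadjusted p under 0.05.

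Of the 61 genes that fell, 16 are on none of the 9 interferon lists, and some of these are known interferon targets too. Trim25 (-0.90 ± 0.18) adds ubiquitin to the RNA sensor RIG-I, Samhd1 (-0.98 ± 0.19) breaks down nucleotides, Tnfsf10 (-1.24 ± 0.26) encodes the death ligand TRAIL, and Apol10b (-1.44 ± 0.27), Ly6e (-0.78 ± 0.12) and AW112010 (-1.14 ± 0.18) fell with them. Also lower were BC023105 (-2.53 ± 0.31), F830016B08Rik (-2.70 ± 0.43), the ribosomal protein gene Rps12, which hosts snoRNA genes (-0.76 ± 0.16), and H2-Q5, a class I gene with near copies (-2.90 ± 0.55). The others were Dio2 and Ly6c2, described above, Tsc22d3, a glucocorticoid target (-0.80 ± 0.16), Atl2, which shapes the endoplasmic reticulum (-0.75 ± 0.15), the adhesion gene Mcam (-0.74 ± 0.16) and Il18rap, an IL-18 receptor chain. Il18rap had 0, 1 and 3 counts with the antibody and 14, 24 and 10 with isotype.

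The genes that fell were then followed in the depletion comparisons, which used other libraries. In D4 brown fat 1021 genes rose in DTR+ mice relative to DTR- mice (8.73% of 11695 tested) and 861 fell (7.36%), 16.1% in all. Of the 61 genes lower with the antibody, 55 were higher in D4 DTR+ tissue, which is 90.2% of the 61 and 5.47% of the 1005 raised genes that the antibody comparison also tested. Of the 61, 0 were lower there. The 6 others were Dio2, H2-Q5, Atl2, Tsc22d3 and Mcam, which did not pass in D4, and Il18rap, which was too low to test. In D3, where 261 genes were higher (2.24% of 11666 tested) and 150 lower (1.29%, and 3.52% in all), 45 of the 61 were higher, which is 73.8% of them and 17.3% of 260. The D3 count of 411 calls was 118 without DTR+ replicate 1, 194 without DTR+ replicate 2 and 258 without DTR- replicate 1.

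By role, D4 DTR+ tissue had higher levels for 10 of 11 immunity-related GTPases (median 3.35), 9 of 9 guanylate-binding proteins (3.01), 22 of 23 MHC class I genes (1.196), 26 of 26 antiviral genes (2.23) and 11 of 14 chemokines (2.33). MHC class II genes rose in 6 of 8 cases (0.73), and markers of T and NK cells in 9 of 9 (2.75). Genes of fatty acid synthesis fell in 17 of 25 cases (-1.04), of glucose use in 19 of 24 (-0.71), of fatty acid oxidation in 19 of 23 (-0.43) and of complex I in 34 of 37 (-0.42).

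Counting called genes too, the antibody comparison gave values below 0 for 781 of the 1005 genes raised in D4 (median -0.26). It gave values above 0 for 697 of the 861 genes lowered in D4 (median 0.13), of which Ppp1r3b (D4 -1.07 ± 0.17) and Echdc1 (D4 -1.06 ± 0.13) were called higher. Its median over all genes tested was 0.01. Car3 (D4 -0.19 ± 0.12) and Rasd1 (D4 0.47 ± 0.21) did not pass in D4.

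**Figure D4:**
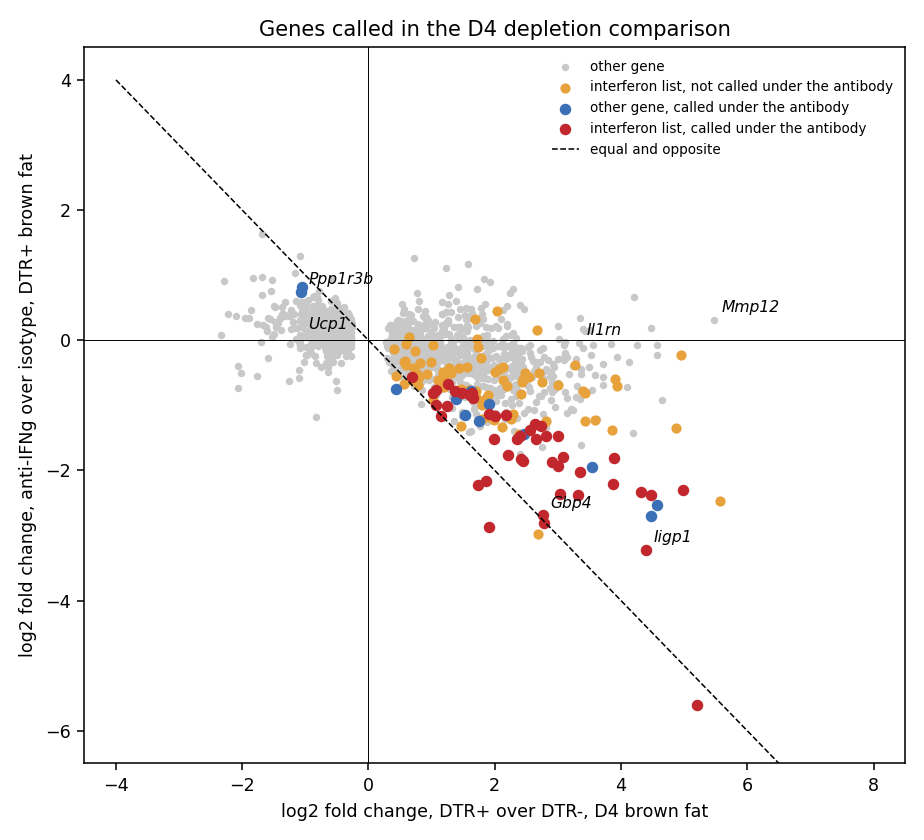
Log2 fold change of antibody over isotype (y axis) against that of DTR+ over DTR- in D4 brown fat (x axis), for genes past the threshold in D4. The dashed line marks equal and opposite values. Red points are interferon genes called with the antibody, such as Iigp1 at -3.22 (y) and 4.39 (x). Il1rn and Ucp1 lie near 0 on the y axis, at -0.04 and 0.05.

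To ask for which genes the antibody change failed to offset the D4 change, the sum of the 2 log2 fold changes was tested in a single fit of the 4 groups. The sum is 0 when they cancel. It passed above 0 for 98 genes (0.752% of 13040 tested) and below 0 for 26 (0.199%), 124 genes in all (0.951%). Of the 55 genes that were lower with the antibody and higher in D4, 1 passed, Gbp5 (sum 2.07), while 48 of the 55 sums were above 0 (median 0.82). On simulated counts edgeR recovered 19% of sums of log2 of 1 and 68% of sums of 2, so many real sums can be missed. For Iigp1 the sum was 1.17 (adjusted p = 0.46) and for Irf1 1.35 (adjusted p = 0.053), and a p that misses the threshold does not show that the changes cancelled. The count of 124 is unsteady, at 46 to 319 with 1 library left out and 410 with DESeq2.

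The genes named next were picked after their values were seen, and each passed in all 14 fits with 1 library left out. Il1rn, the natural inhibitor of IL-1, rose in D4, at 28.5 ± 6.94 CPM in DTR+ tissue and 2.77 ± 0.978 CPM in DTR- tissue (SD, n = 4 each, scaled within the 8 D4 libraries). In the antibody experiment, scaled within its own 6 libraries, it stood at 28.6, 21.7 and 17.2 CPM with the antibody and 27.5, 24.5 and 17.2 CPM with isotype, and its sum was 3.28 (adjusted p = 0.00020). The macrophage elastase Mmp12 (sum 5.78, adjusted p = 0.0070), the stress gene Gadd45b (3.37, adjusted p = 0.0013), the factor Egr2 (3.68, adjusted p = 0.0017) and the cyclin Ccna2 (3.56, adjusted p = 0.00405) gave sums above 0. So did the cytokine feedback gene Socs3 (2.82, adjusted p = 0.0044), Stat3 (0.94, adjusted p = 0.0084) and the NF-kB inhibitor gene Nfkbia (1.07, adjusted p = 0.0036). Ucp1 gave a sum of -1.04 (adjusted p = 0.0044), the antibody value being 0.05 and the D4 value -1.08.

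Levels on one scale over all 38 whole brown fat libraries bear on how these sums are read. On that scale Iigp1 stood at 17.9 ± 3.33 CPM with the antibody (SD, n = 3) and 166 ± 21.3 CPM with isotype (n = 3). It stood at 342 ± 151 CPM in D4 DTR+ tissue and 16.5 ± 8.83 CPM in D4 DTR- tissue (n = 4 each). The antibody libraries, at 14.8 to 21.4 CPM, lay within the range of the D4 DTR- libraries, 11.1 to 29.6 CPM. The top of that range is replicate 3 alone. The other D4 DTR- libraries, at 14.3, 11.1 and 11.1 CPM, lay below all antibody libraries. Tap1 stood at 27.9 ± 3.56 CPM with the antibody and 101 ± 19.0 CPM with isotype, and at 187 ± 58.1 CPM in D4 DTR+ tissue and 35.003 ± 10.3 CPM in D4 DTR- tissue. Mmp12 stood at 44.2 ± 2.60 CPM with the antibody and 35.4 ± 5.54 CPM with isotype, and at 61.7 ± 29.1 CPM in D4 DTR+ tissue and 1.30 ± 1.65 CPM in D4 DTR- tissue. For Mmp12 the antibody and isotype libraries were all above the D4 DTR- libraries, and for Iigp1 and Tap1 the isotype libraries alone.

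Ucp1 differed from these on the same scale. It ranged from 4737 to 7101 CPM with the antibody and from 5168 to 6245 CPM with isotype, and from 2326 to 2762 CPM in D4 DTR+ tissue and 4573 to 6350 CPM in D4 DTR- tissue. The isotype libraries lay above all D4 DTR+ libraries and inside the range of the D4 DTR- libraries. They lay below all libraries of the D3 DTR- group, 7520 to 10764 CPM, and of the DTR- PBS group, 7384 to 9871 CPM. Their range overlapped that of D3 DTR+ tissue, 3523 to 6026 CPM. With no DTR- mice in the antibody experiment, a smaller fall of Ucp1 there and a difference between experiments cannot be told apart. Car3 stood at 9884 ± 672 CPM with the antibody and 6925 ± 919 CPM with isotype. In D4 it stood at 10653 ± 1762 CPM (DTR+) and 12593 ± 1676 CPM (DTR-), so isotype was lowest of these 4 groups. In D3 the order was the reverse, at 10703 ± 2461 CPM (DTR+) and 7586 ± 1104 CPM (DTR-). The means of the WT isotype group (5246 CPM) and the cold group (2378 CPM) were lower still than that of the DTR+ isotype group.

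**Figure D5:**
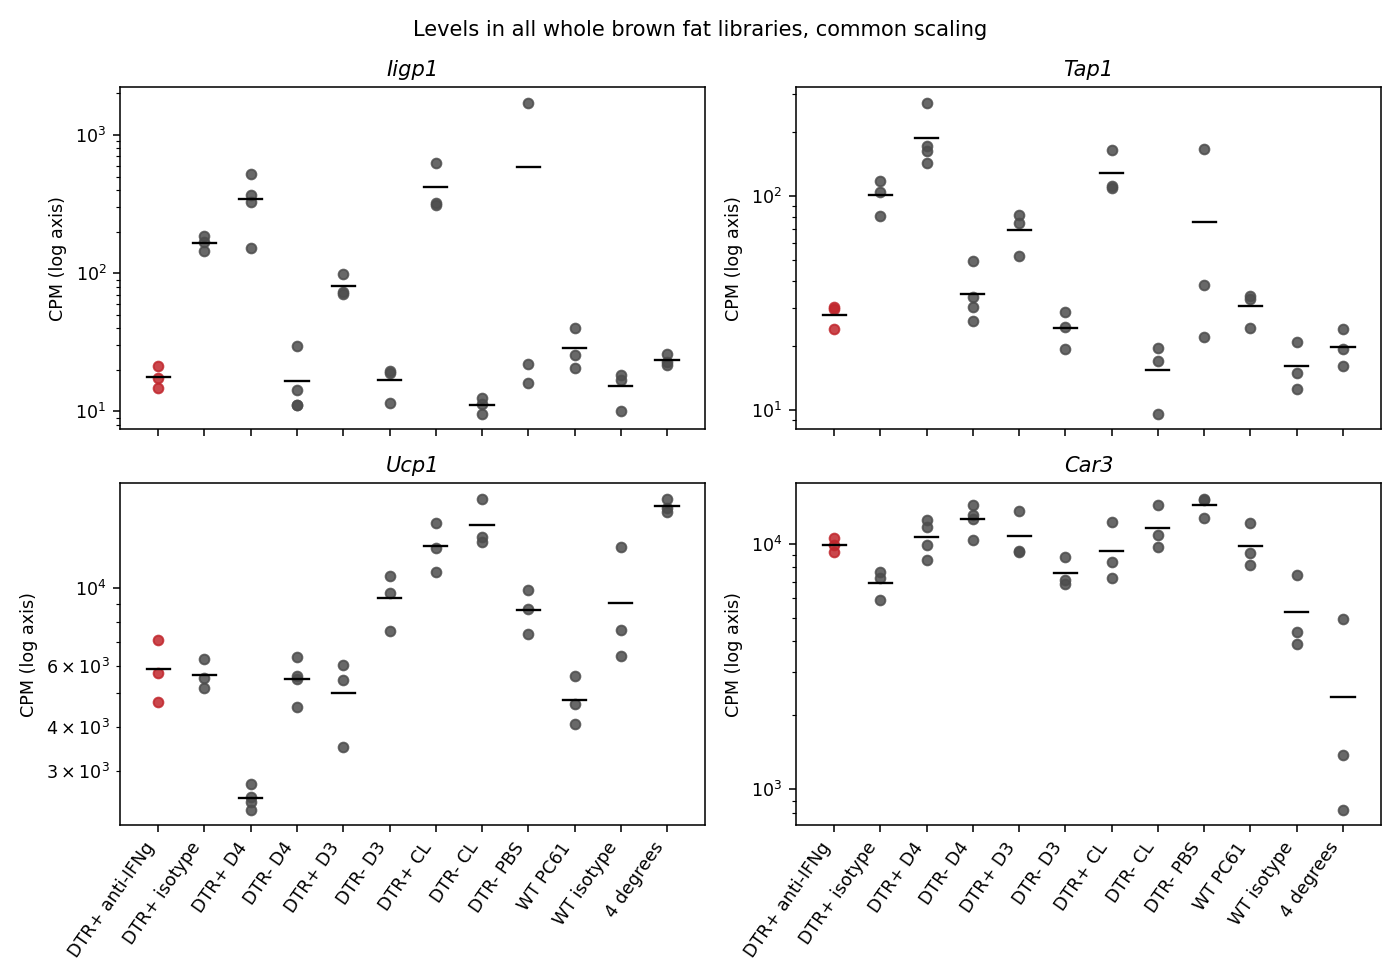
CPM on a common scale (log axis) of Iigp1, Tap1, Ucp1 and Car3 in the 12 groups of whole brown fat libraries, with one point per library and a bar at the group mean. The antibody group is red. For Iigp1 its libraries lie at 14.8 to 21.4 CPM among the DTR- groups, and 1 library of the DTR- PBS group stands apart at 1709 CPM.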

How the data were processed

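RNA of whole brown fat (2 ng) was made into Smart-seq2 libraries (oligo(dT) priming, Nextera XT), per the labels' protocols. The deposited values are counts per gene, made by the authors with STAR 2.7.3a on mm10 and featureCounts, per the submitters' processing notes. No source used here states the annotation release, the strand setting or the treatment of multiply aligned reads. The table covers 55011 genes, and the 60 libraries have 3007241 to 9673342 counts.

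The comparisons used edgeR 4.0.16 under R 4.3.3 (filterByExpr, TMM, robust quasi-likelihood F test, Benjamini-Hochberg over all genes tested, threshold 0.05). Each comparison was fitted on its own libraries, and the sum of the blockade and D4 changes on their 4 groups. An SE is the log2 fold change divided by the root of its F statistic. Exact permutation tests are two-sided. Members and the 39 gene lists were chosen with earlier results of these data known. Named genes are the marker, pathway and targeted genes, up to 12 called genes per direction by size whose mean reached 5 CPM in either group, and for each list up to 5 called members or else its 2 most expressed. Some of these are left out of the text, results of 1 withheld gene are not reported here, and other genes were named after their values were seen. Positions come from GENCODE M21 and promoters from RefSeq GRCm38.p6, with a window for 9322 of the 12017 tested genes.

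On simulated counts with 200 changed genes in the blockade comparison (12017 genes), edgeR recovered 57% of those changed by log2 of 1 and 82% of those changed by 2, with 7.95% false calls. No pair of replicates was a near copy (chi-square per degree of freedom 7.66 to 11.1). Alternatives were DESeq2 1.42.0, RLE factors, no filter, thinning, and each library left out. Others were a fit with all DTR groups and the cold WT group, and a replicate block for the D4 and D3 sets.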

Additional observations from a re-analysis of the deposited data

Results flagged for a closer look

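Among 8 genes looked at in the 2 groups of 4 libraries of D4 brown fat, 16 groups in all, 1 value stood far from its group. Mmp12 was at 3.749 CPM in 1 DTR- library (replicate 3), on the scale common to all brown fat libraries. The other DTR- libraries held 0.164, 0.618 and 0.672 CPM. The gap to the nearest library was 0.858 of the group's range. Chance flags about 1 in 20 such groups if values are normally distributed, which was not checked for levels this low.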

How the results depend on the processing

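The 65 genes called under the antibody kept their direction with each library left out and under every other alternative that gave a value. RLE factors left 65 calls (4 higher, 61 lower), DESeq2 gave 99 (15 higher, 84 lower), no filter on low counts 172 (52 higher, 120 lower) and thinning 61. The fit of all whole brown fat DTR groups and the cold WT group was made with edgeR. It gave 0 genes and 0 members of the 9 interferon lists, and 566 genes at an unadjusted p under 0.05. Without DTR- PBS replicate 3, an alternative chosen, like thinning, after seeing the data, 36 genes and 32 members passed. The comparison's own fit gave 45 members. With 1 library left out the count was 40 to 61, and that of interferon members 31 to 41. The D3 count of 411 became 788 without a filter and 118 to 391 with 1 library left out, at 118 without DTR+ replicate 1, 194 without DTR+ replicate 2 and 258 without DTR- replicate 1. The D4 count of 1882 was 1361 to 1879 with 1 library left out. The sum of blockade and D4 changes was called for 124 genes, for 410 with DESeq2, for 461 without a filter and for 46 to 319 with 1 library left out. It was 52, 49 and 79 without antibody replicates 1, 2 and 4, 54 and 46 without isotype replicates 4 and 8, 319, 79 and 57 without D4 DTR+ replicates 1, 2 and 4, and 61, 292 and 67 without D4 DTR- replicates 2, 3 and 4. The cause of these shifts was not tested. Genes that had not passed changed sign with 1 library left out: Ifngr1 (-0.0086 to 0.235), Ifngr2 (-0.19 to 0.020), Jak1 (-0.057 to 0.14), Ucp1 (-0.10 to 0.17), C1qb (-0.74 to 0.28), Il1rn (-0.255 to 0.12), Ccna2 (-0.10 to 0.39) and Socs3 (-0.18 to 0.51). No paired analysis was possible because the antibody and isotype groups share only replicate number 4. With a replicate block D4 gave 1917 calls and D3 293, and same-numbered libraries did not deviate together (correlations of -0.23 to 0.17 in D4 and -0.092 to 0.0063 in D3).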

Other observations

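In the DTR- PBS group of brown fat, whose mice carry no toxin receptor, 1 of 3 libraries held 1709 CPM of Iigp1 on the common scale, against 21.86 and 15.96 CPM in the other libraries of that group. The same library held 166 CPM of Tap1 (21.9 and 38.3 CPM in the others) and 174 CPM of Irf1 (35.1 and 37.3 CPM). Its Iigp1 level is above every DTR+ library of brown fat, the highest of which is 629 CPM in the DTR+ CL group. A group of 3 was not tested for outliers, and why this library stands apart was not tested.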
